A study of Xenopus laevis with 12 samples.

Results

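The brains of *Xenopus laevis* tadpoles exposed to the amniotic mixture at 1x were compared with the brains of control tadpoles by RNA sequencing. The comparison was taken from the treatment labels, which put 4 samples in the mixture group (numbers 5 to 8) and 4 in the control group (numbers 1 to 4), 8 of the 12 samples of the series. The other 4 samples (numbers 9 to 12) came from tadpoles exposed to 10 nM T4 (thyroxine) and entered the statistical fit as a further group. Every sample was a pool of 2 brains. All animals were kept from stage NF 1 (the fertilized egg) for 8 days to stage NF 47, a feeding tadpole well before metamorphosis. The mixture held 15 compounds (phenols, phthalates, organochlorine pesticides, perfluorinated, polychlorinated and polybrominated compounds, a naphthol, methyl mercury and lead), each at the level measured in human amniotic fluid. All groups, the control included, carried the same trace of DMSO, the solvent of the mixture. The labels do not say from which tank, female or day a sample came, so p-values measure only the spread between these samples, which may be partly technical.

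Thyroid hormones act through nuclear receptors that switch genes on and off, and the developing vertebrate brain depends on them for the birth, migration and maturation of neurons and glia. The tadpole is widely used to study disruption of this axis because its metamorphosis is driven by thyroid hormone. Many of the chemicals in the mixture are known or suspected to interfere with hormone synthesis, transport or receptor binding. The question was which part of the brain transcriptome was altered by the mixture, in which direction and by how much. A lower level of a transcript in a whole brain can mean fewer cells of a type or less RNA per cell, and these cannot be told apart here.

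The files list 51041 genes by number, from gene1 onwards. Of these numbers, 0 matched a name, locus tag or accession in the RefSeq gene table at hand. The response is therefore described by abundance, size, direction and spread, 2 genes are given as examples in each direction, and brain markers or pathways were not analysed here. The depth, taken as the counts on genes, was 10420292 to 11685566 in mixture samples, against 10518396 to 11080269 in control samples. The share of all reads that fell outside genes was 15.8% ± 0.368 in the mixture group and 15.8% ± 0.306 in the control group, and the share not aligned was 21.3% ± 0.680 in the mixture group and 21.4% ± 0.159 in the control group (SD, n = 4 samples per group). Neither these 2 shares, nor the depth, nor the shares of reads on overlapping genes or of low quality passed the test (exact two-sided permutation tests of 5 measures, smallest unadjusted p = 0.257, n = 4 samples per group). By the names of the deposited tables, 5′ trimming is listed once for the mixture and T4 samples and a second time for the control samples. An effect of this step cannot be told apart from an effect of the mixture here. The T4 values are given beside the main results.

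The samples fell into 2 sets of 6 along component 2 of the PCA (principal component analysis of the transformed counts), and each set held 2 samples of every group. Those of the first set (mixture samples 5 and 6, T4 samples 9 and 10, control samples 1 and 2) scored from 12.9 to 15.7, and those of the second set (mixture samples 7 and 8, T4 samples 11 and 12, control samples 3 and 4) from −15.6 to −13.0. The study ran 2 sets of experiments on 2 breedings, but the labels do not say which samples belong to which, so the sets are known from the counts alone. The set was used as a block beside the exposure in the tests across genes, unless stated otherwise.

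After exposure to the mixture, 625 genes differed in level from the control, 2.3% of the 27141 genes that had enough counts to be tested. Of these differentially expressed genes (DEGs), 518 were lower after the mixture than in control brains (1.91% of the genes tested) and 107 were higher (0.394%). DEGs are genes with an adjusted p-value under 0.05 (quasi-likelihood test of edgeR, adjusted over all genes tested by the Benjamini-Hochberg method) in 1 fit of the 12 samples with 8 residual degrees of freedom. The lower genes made up 82.9% of the DEGs (95% Wilson confidence interval 79.7% to 85.6%, which covers counting error only and treats genes as independent). Over all genes tested the directions were nearly balanced, with 48.4% lower and a median log2 fold change of 0.01. The libraries were scaled with TMM factors, which bring the bulk of the genes near 0, so this balance follows in part from the scaling. With total counts alone the median was −0.02. At an unadjusted p-value under 0.05 there were 5370 genes (19.8%), 2990 lower (11%) and 2380 higher (8.77%), so that 55.7% of them were lower. In the same fit, 8379 genes differed between T4 and control, 30.9% of those tested, with 4752 higher (17.5%) and 3627 lower (13.4%).

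The number of DEGs depended on single samples, most of all on those of the second set. Without mixture sample 7 or 8 it was 67 or 80, without mixture sample 6 it was 305, and without control sample 3 or 4 it was 92 or 108. Without any other sample it stayed between 436 and 582, and 55 of the 625 genes (48 lower, 7 higher) were DEGs in all 12 fits that left out 1 sample. When only the 8 mixture and control samples were fitted, 225 genes were DEGs (0.845% of 26640), 198 of them lower (0.743%) and 27 higher (0.101%), and 215 of these were among the 625, which is 95.6% of the smaller list and 34.4% of the larger. Without the block there were 141 DEGs, 130 lower and 11 higher, and all 141 were among the 625. When the counts were scaled by the total alone, in place of TMM factors, 818 genes were lower and 61 were higher, so that 93.1% of the DEGs were lower. DESeq2 called 1056 genes, 750 lower and 306 higher (71.0% lower), and 601 of the 625 were among them.

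The changes were small. Among the lower genes, the median log2 fold change was −0.46, which is a level 0.727 times that of the control, and the middle 50% of them ranged from −0.61 to −0.37. Of the 518 lower genes, 21 changed by less than 1.2-fold, 348 by 1.2 to 1.5-fold, 123 by 1.5 to 2-fold and 26 by more than 2-fold. The higher genes changed less, but they were also the more abundant ones, as given below. Their median log2 fold change was 0.28, which is 1.21 times the control level, and 47 of the 107 changed by less than 1.2-fold, 45 by 1.2 to 1.5-fold, 8 by 1.5 to 2-fold and 7 by more than 2-fold. Among all genes tested, 184 (0.678%) had a fitted change of more than 2-fold. No gene was found to be switched on or off. Among all 51041 genes, 0 had no count in the 4 control samples and more than 3 counts in every mixture sample, and 0 had the reverse pattern. Among the DEGs, 1 gene was at or under 3 counts in all 4 mixture samples and 0 were so in all 4 control samples.

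**Figure D1:**
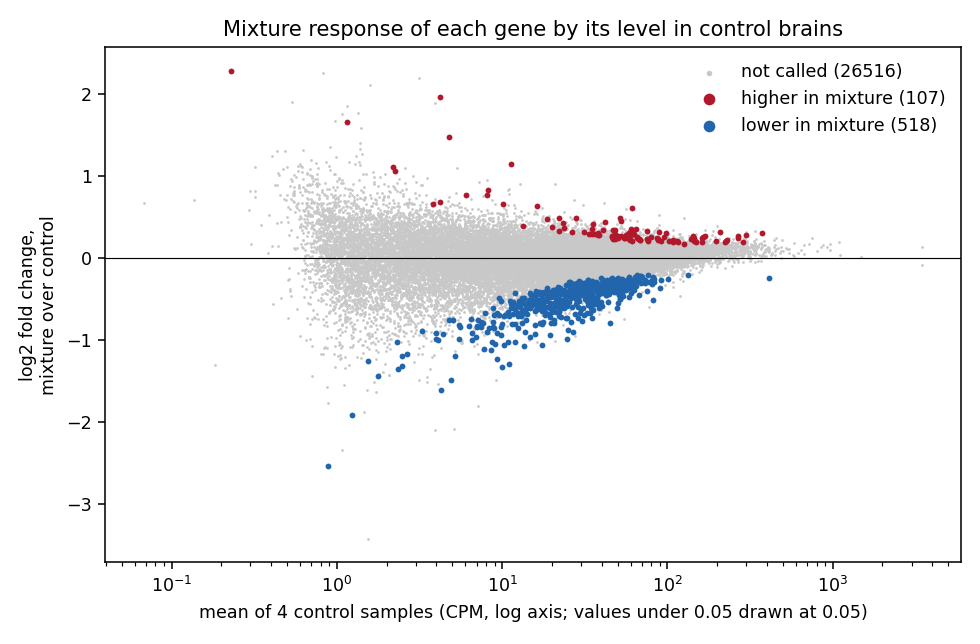
Each point is 1 of the 27141 genes tested, with the mean of the 4 control samples in CPM on the horizontal log axis, the log2 fold change of mixture over control on the vertical axis, and the 107 higher and 518 lower DEGs in colour. The lower DEGs form a dense band between 10 and 100 CPM, whereas the higher DEGs lie closer to the zero line and reach further to the right.

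The lower genes were concentrated in a band of moderate abundance. CPM are counts scaled to a common library size with TMM factors, and the genes were grouped by their mean CPM in the control samples. Of the 518 lower genes, 460 (88.8%) lay between 10 and 100 CPM, a band that held 58.3% of the genes tested. Between 10 and 30 CPM, 3.45% of the genes were lower and 0.17% were higher. Between 30 and 100 CPM, 2.46% were lower and 0.662% were higher. Above 100 CPM there were 3 lower genes (0.154%) and 26 higher genes (1.33%) among 1952 with TMM factors. Under 10 CPM few genes were called in either direction. There were 46 lower and 7 higher genes among the 5119 between 3 and 10 CPM, 8 and 3 among the 3411 between 1 and 3 CPM, and 1 and 1 among the 828 under 1 CPM. The median control level was 26.6 CPM for the lower DEGs, 58.9 CPM for the higher DEGs and 20.5 CPM for all genes tested. Grouping by the mean of all 12 samples, which does not favour genes that happened to be high in the control, put 453 lower genes between 10 and 100 CPM, and 2 lower and 30 higher genes above 100 CPM. This split above 100 CPM depended on the scaling, as total counts alone gave 10 lower and 13 higher genes there.

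The size a change needed to be called also followed abundance. The median standard error of the log2 fold change was 0.42 under 1 CPM, 0.32 between 1 and 3 CPM, 0.19 between 3 and 10 CPM, 0.11 between 10 and 30 CPM, 0.07 between 30 and 100 CPM and 0.06 above 100 CPM. The smallest change that was called fell in the same order, with absolute log2 fold changes of 2.28, 1.02, 0.49, 0.28, 0.20 and 0.17. No change as small as that of the median lower DEG was called under 10 CPM, so the few DEGs there do not show that these genes were unaltered. Above 30 CPM the precision was highest, and lower DEGs were less frequent above 100 CPM although smaller changes could be called there. Between 10 and 30 CPM the median log2 fold change was −0.53 for lower and 0.45 for higher DEGs. Between 30 and 100 CPM it was −0.36 and 0.27. How much of the size difference between lower and higher DEGs goes with their abundance was not tested.

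Most of the abundant genes had a slightly higher level after the mixture. Among the 2020 genes with a mean of at least 100 CPM over the 12 samples, 83.3% had a higher fitted level in mixture brains than in control brains, with a median log2 fold change of 0.08. The share was 70.7% in the second set (median 0.07) and 84.0% in the first set (median 0.08), which have no sample in common. In the class from 10 to 30 CPM, 44.3% of the genes were higher after the mixture, with a median of −0.03. With RLE factors the share above 100 CPM was 82.9%, with upper-quartile factors 83.7%, and with total counts alone it was 74.4% (median 0.05). After T4, whose comparison shares the control samples, 45.2% of the same genes were higher than in control brains.

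Counts on these 2020 genes made up 35.9%, 35.7%, 36.6% and 35.6% of the counts of mixture samples 5 to 8, against 34.5%, 34.2%, 34.7% and 35.1% in control samples 1 to 4. All 4 mixture samples lay above all 4 control samples. The mean was 36.0% ± 0.440 in the mixture group, 33.9% ± 0.562 in the T4 group and 34.6% ± 0.366 in the control group (SD, n = 4 samples), a difference of 1.34 percentage points between mixture and control (exact two-sided permutation test, p = 0.0286, adjusted p = 0.0429 over 3 abundance classes). A lower p cannot be reached with 4 samples per group. These permutations ignored the sets. With the labels permuted only within the sets (36 arrangements), the exact two-sided permutation p was 0.0556, the smallest that this scheme allows, so the difference cannot pass 0.05 there. The same held for the class from 10 to 100 CPM. The test was chosen after the shift had been seen in these counts. Within the sets, the difference was 1.21 points in the second set and 1.48 points in the first set. The class from 10 to 100 CPM held 60.4% ± 0.358 of the counts in the mixture group and 61.6% ± 0.273 in the control group, again without overlap (exact two-sided permutation test, p = 0.0286, adjusted p = 0.0429, n = 4 samples per group). Genes under 10 CPM held 3.69% ± 0.0857 in the mixture group and 3.82% ± 0.123 in the control group, with overlap (exact two-sided permutation test, p = 0.114, adjusted p = 0.114, n = 4 samples per group). As the 3 shares add up to the whole, the results for the classes are not independent of each other.

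**Figure D2:**
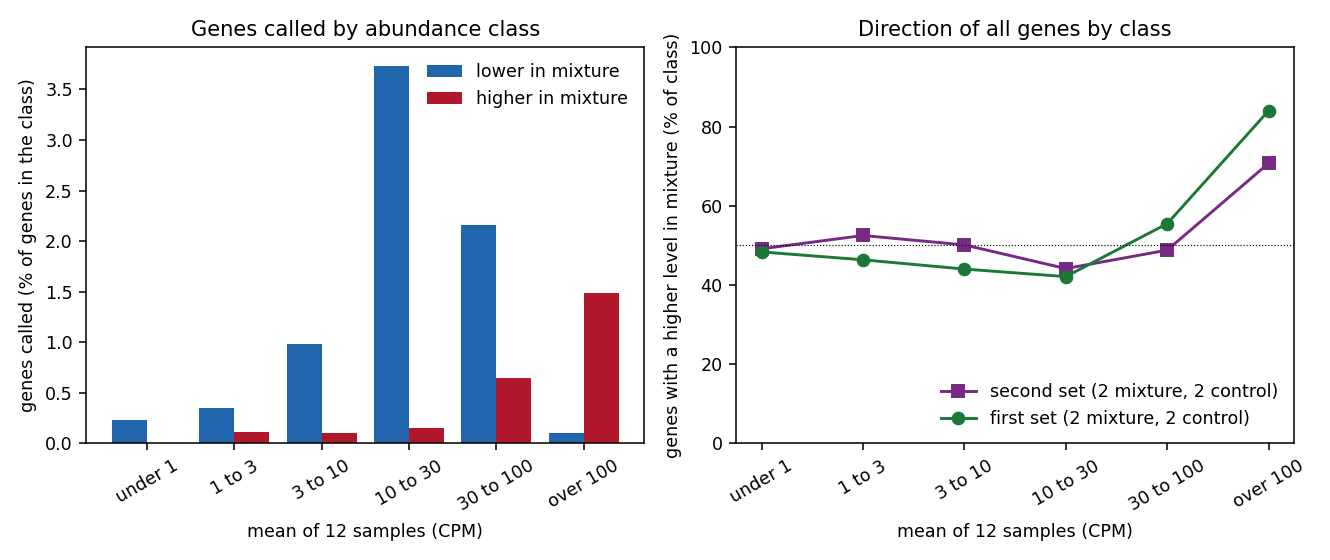
Left, the share of genes called lower or higher in each class of abundance (mean CPM of the 12 samples); right, the share of all genes in a class whose fitted level was higher in mixture than in control, in each set of 2 mixture and 2 control samples, with a dotted line at 50%. Lower DEGs peak between 10 and 30 CPM, and the share of genes with a higher level rises to 70.7% and 84.0% above 100 CPM.

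The summed level of the DEGs showed how far each sample moved. These sums describe genes that were chosen for the difference between the same mixture and control samples. The 518 lower genes summed to 12357, 12373, 11047 and 11300 CPM in mixture samples 5 to 8, against 15493, 15643, 15910 and 15811 CPM in control samples 1 to 4. The mixture samples of the second set (7 and 8) were the lowest of the 8 and the control samples of that set (3 and 4) the highest, so that the distance between the groups was wider there than in the first set. In T4 samples 9 to 12 the sum was 15759, 15987, 15467 and 15852 CPM. These samples entered the choice of the genes through the spread, the filter on low counts and the scaling. Of the 625 DEGs, 622 were among the genes tested with the 8 mixture and control samples alone. The T4 mean was 15766 ± 221 CPM and the control mean 15715 ± 184 CPM (SD, n = 4 samples), with overlapping values. The 107 higher genes summed to 10000, 10118, 10473 and 10147 CPM in mixture samples 5 to 8, and to 9072 to 9295 CPM in the T4 samples, against 8611, 8524, 8295 and 8420 CPM in control samples 1 to 4. For these genes the T4 samples lay between the other groups. Both T4 and the mixture were compared with the same control samples. Of the 518 lower genes, 323 were not DEGs after T4, 92 were higher after T4 and 103 were lower. Of the 107 higher genes, 59 were not DEGs after T4, 34 were higher and 14 were lower. Of all genes tested, 17.5% were higher and 13.4% lower after T4, and nothing particular to these lists is read from the counts.

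**Figure D3:**
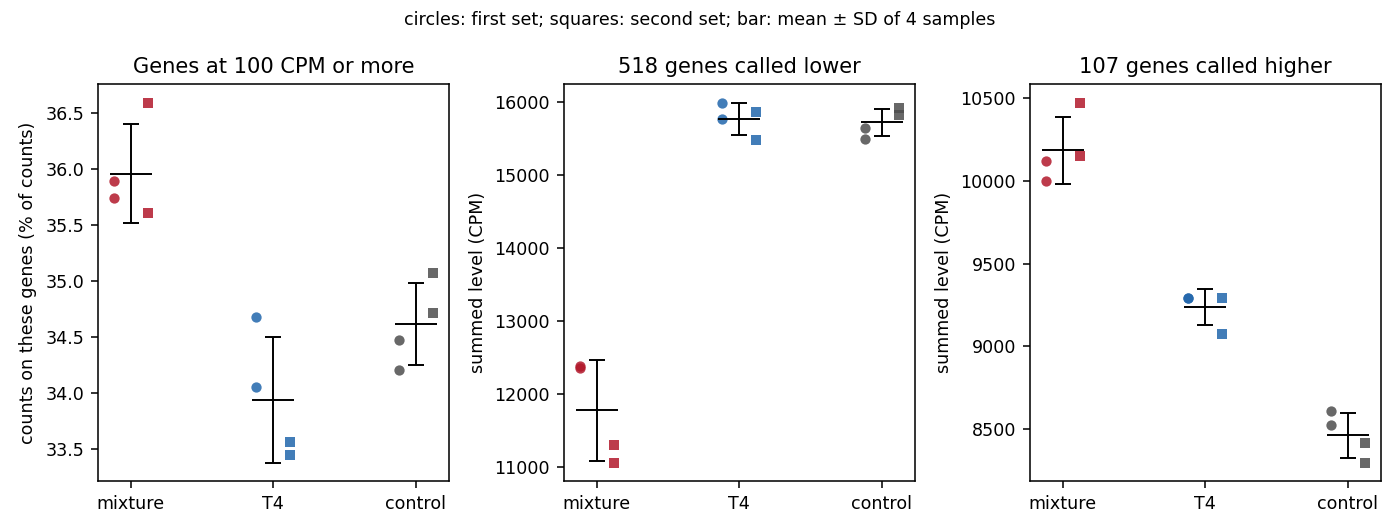
Values of each sample in the mixture, T4 and control groups (circles, first set, and squares, second set, with the mean ± SD of 4 samples) for the share of counts on the 2020 genes of at least 100 CPM and the summed CPM of the 518 lower and of the 107 higher DEGs, on vertical axes that do not start at 0. Mixture and control samples are apart in each panel, and the T4 samples lie beside the control samples in the middle panel.

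For most DEGs the mixture and control samples did not overlap. For 439 of the 518 lower genes (84.7%), all 4 mixture values lay below all 4 control values, and for 83 of the 107 higher genes (77.6%) all 4 lay above. Over all genes tested, 1576 (5.81%) had all mixture values below and 977 (3.6%) had all above. DEGs are chosen for a difference that is large against the spread, so a high share among them follows from the choice. Within the sets, both mixture samples were beyond both control samples in each set for 512 of the lower DEGs (98.8%) and 103 of the higher DEGs (96.3%), beside 2721 lower (10%) and 1956 higher (7.21%) of all genes tested, and this too follows from the choice.

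The 2 sets share no sample, and the response was therefore fitted in each set separately, with 1 spread for 6 group-by-set means. In the second set alone, 803 genes passed the threshold (2.96% of those tested), 542 lower (2%) and 261 higher (0.962%), and 5775 (21.3%) had an unadjusted p-value under 0.05. In the first set alone, 0 genes passed in edgeR (smallest adjusted p = 0.143), and 2366 genes (8.72%) were under 0.05 before adjustment. No other tool was run on the sets apart. The difference between the sets was tested itself, as an interaction of exposure and set. By that test 0 genes differed between the sets in edgeR (smallest adjusted p = 0.217), with 2202 genes (8.11%) under 0.05 before adjustment. With the 8 mixture and control samples alone, 1 gene passed the same test (edgeR adjusted p = 0.0358).

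The lower genes found in one set were mostly lower in the other. Of the 542 genes that were lower in the second set, 505 (93.2%) were also lower in the first set, with a median log2 fold change of −0.60 in the second and −0.21 in the first. Of all genes tested, 49.3% were lower in the first set. Of the 261 genes that were higher in the second set, 198 (75.9%) were also higher in the first, with medians of 0.46 in the second and 0.08 in the first, where 50.7% of all genes tested were higher. In the other direction no gene passed the threshold. Genes under 0.001 before adjustment in the first set were therefore taken from the 27141 tested, a limit that some genes pass by chance. Of 45 such lower genes, 42 were lower in the second set, with medians of −0.64 in the second and −0.67 in the first. Of 42 such higher genes, 29 were higher in the second set, with medians of 0.10 in the second and 0.74 in the first. Over all genes tested, the median log2 fold change in the second set was −0.0002, so the directions were nearly balanced there. This balance follows in part from the scaling with TMM factors. Genes chosen for a large change in one set are drawn to smaller values in the other by the choice alone. With the other scalings, the share of the lower genes of the second set that were also lower in the first was between 93.2% and 95.5%, and that of the higher genes between 63% and 77.1%. Total counts alone gave the 95.5% and the 63%, and with that scaling 57.4% of all genes tested were lower in the first set and 42.5% higher. Across the 27141 genes (genes do not count as independent replicates), Pearson's r between the sets was 0.200 and Spearman's rho 0.276, and 62.3% of the genes had the same sign in both. For r by abundance, the genes were grouped by their mean CPM over the 12 samples. Within these classes, r was 0.394 between 30 and 100 CPM and 0.371 between 10 and 30 CPM. It was 0.238 between 3 and 10 CPM, 0.109 between 1 and 3 CPM and 0.0871 under 1 CPM. Above 100 CPM it was 0.0747, and 68.9% of those genes had the same sign in both sets. As 84.0% of them were higher in the first set and 70.7% in the second, many would share a sign without agreement gene by gene.

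**Figure D4:**
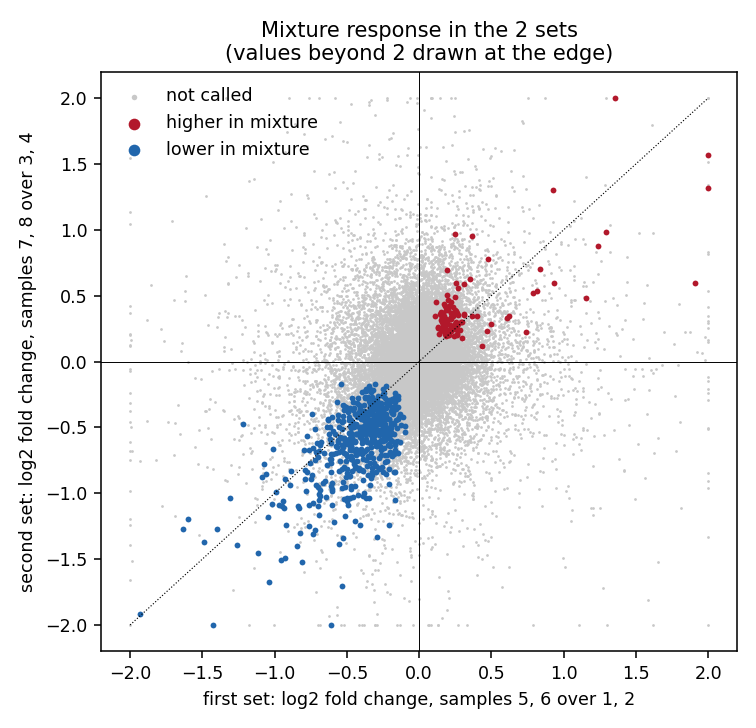
Log2 fold change of mixture over control for each gene tested, in the first set (horizontal axis, samples 5 and 6 over 1 and 2) and in the second set (vertical axis, samples 7 and 8 over 3 and 4); the dotted line marks equal values and values beyond 2 are drawn at the edge. The lower DEGs, chosen on both sets together, lie mostly below the dotted line, with a median of −0.56 in the second set and −0.37 in the first.

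All 625 DEGs had the same direction in both sets, beside 62.3% of all genes tested. DEGs were called on both sets together, so a high share among them follows largely from the choice. The DEGs moved further in the second set. Their number depended most on samples of that set, so a larger change there may follow in part from the choice. Their median log2 fold change was −0.56 in the second set and −0.37 in the first for the lower genes, and 0.33 in the second set and 0.22 in the first for the higher genes. The change was larger in the second set for 424 of the 518 lower and 80 of the 107 higher genes. The same share over all genes tested was not computed, so nothing particular to the DEGs is read from these counts. The interaction test of the difference between the sets passed for 0 genes in the fit of 12 samples (edgeR, 2202 genes under 0.05 before adjustment). Of the DEGs, 120 (19.2%) also differed in level between the sets, beside 13.4% of all genes tested. The sets were drawn from these same counts, so such differences follow in part from that choice, and nothing is read from these shares.

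The spread between samples had similar values in the mixture and the control group. It was measured as the SD of log2 CPM between the 2 samples of a group in a set, as the median over genes. For the mixture it was 0.10 in the second set and 0.10 in the first, and for the control 0.10 in the second set and 0.11 in the first. By abundance (mean CPM of the 12 samples), the spread of the mixture pairs ranged from 0.35 and 0.35 under 1 CPM to 0.06 and 0.05 above 100 CPM, in the second and the first set. Control samples 1 and 2 were the pair that differed most at each class above 3 CPM among the 4 mixture and control pairs, with 0.19 between 3 and 10 CPM, 0.12 between 10 and 30 CPM, 0.07 between 30 and 100 CPM and 0.06 above 100 CPM. The biological coefficient of variation that edgeR estimated had a median of 9.70% over all genes, 7.95% among the lower and 5.64% among the higher DEGs. DEGs are chosen for a difference that is large against the spread, so low values among them follow in part from the choice. The coefficient also fell with abundance, from a median of 24.5% under 1 CPM to 5.75% above 100 CPM. No 2 samples of a group were copies of each other, as the chi-square of their counts divided by its degrees of freedom was 3.02 to 4.12 within a set and 5.73 to 6.92 across sets.

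Examples were taken by a fixed rule, as the largest change (at a mean log2 CPM above 0) and the most abundant gene among the DEGs of each direction whose groups did not overlap. The most abundant gene that rose was gene49139. It had 442, 443, 480 and 470 CPM in mixture samples 5 to 8, against 359, 360, 366 and 408 CPM in control samples 1 to 4. Every mixture sample was above every control sample, and the highest control value was that of sample 4. The mean was 459 ± 19.3 CPM in the mixture group and 373 ± 23.1 CPM in the control group (SD, n = 4 samples), a log2 fold change of 0.30 (standard error, SE, 0.05, adjusted p = 0.00984 in edgeR). The change was 0.30 in the second and 0.30 in the first set. It was a DEG in each of the 12 fits that left out 1 sample (adjusted p between 0.0128 and 0.0450 in edgeR). After T4, gene49139 had 346 ± 6.12 CPM (SD, n = 4 samples), and its difference from the control did not pass the threshold (adjusted p = 0.109 in edgeR).

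The most abundant gene that fell was gene43678. It had 355, 360, 343 and 334 CPM in mixture samples 5 to 8, against 406, 387, 425 and 436 CPM in control samples 1 to 4, without overlap. The fitted log2 change was −0.25 (SE 0.06, adjusted p = 0.0472 in edgeR), −0.35 in the second set and −0.15 in the first. This call was close to the threshold. It was lost in 9 of the 12 fits that left out 1 sample, and kept only without control sample 2, T4 sample 10 or T4 sample 11 (edgeR adjusted p of all 12 fits between 0.0377 and 0.143). After T4 it had 276 to 336 CPM and a log2 fold change of −0.44 (adjusted p = 7.59e-05 in edgeR).

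The largest rise under the rule was that of gene41122, a gene close to the limit of detection. Its mean over the mixture and control samples was 0.719 CPM, and it met the limit on abundance, which is a mean over all 12 samples, only with the T4 samples. It had 4, 6, 23 and 20 counts in mixture samples 5 to 8, against 3, 1, 2 and 4 counts in control samples 1 to 4. The mixture samples of the second set were far above the other 6 mixture and control samples, whereas mixture sample 5 had as many counts as control sample 4 and was above it only in CPM (0.387 against 0.374). The ratio of the summed counts, scaled for library size, was 5.34 (95% exact counting interval 2.69 to 11.8). This interval covers counting error only, not the spread between samples. On the log2 scale the fitted change was 2.28 (SE 0.51, adjusted p = 0.0344 in edgeR). It was 2.74 in the second set (SE 0.58) and 1.35 in the first (SE 0.79). The call was lost without control sample 2, 3 or 4 or mixture sample 6, 7 or 8 (adjusted p up to 0.146 in edgeR). In T4 samples 9 to 12 it had 7, 5, 30 and 57 counts, a log2 fold change over control of 3.05. In T4 as in the mixture the samples of the second set were the higher ones. This gene passed the filter on low counts only through mixture samples 7 and 8 and T4 samples 11 and 12. Its p-values therefore rest in part on the values that admitted it to the test. The fit also gave this gene a higher level in the second set than in the first (log2 difference 2.17). The sets are known from these same counts, so this difference is given as a description only. Among the control samples, the counts were 3 and 1 in the first set and 2 and 4 in the second.

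The largest fall under the rule was that of gene641, another gene of few counts (mean over the mixture and control samples 0.779 CPM). Its mean log2 CPM, taken over all 12 samples for the rule, was 0.23. Like gene41122, gene641 was not among the genes tested when only the 8 mixture and control samples were fitted, so it was tested only with the T4 samples. It had 4, 1, 1 and 8 counts in mixture samples 5 to 8, against 11, 10, 20 and 13 counts in control samples 1 to 4. The groups did not overlap, and mixture sample 8 was the closest to the control samples. The ratio of the summed counts was 0.261 (95% exact counting interval 0.134 to 0.477, again counting error only). The fitted log2 fold change was −1.92 (SE 0.45, adjusted p = 0.0423 in edgeR). It was −1.92 in the second set and −1.93 in the first. The call was kept in 1 of the 12 fits that left out 1 sample, the one without mixture sample 5 (adjusted p = 0.0482 in edgeR, and up to 0.137 in the others). Its level was 0.314 ± 0.282 CPM in the mixture group, 1.40 ± 0.321 CPM in the T4 group and 1.24 ± 0.447 CPM in the control group (SD, n = 4 samples). Lower DEGs with larger fitted changes, down to −2.54, did not meet the rule.

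**Figure D5:**
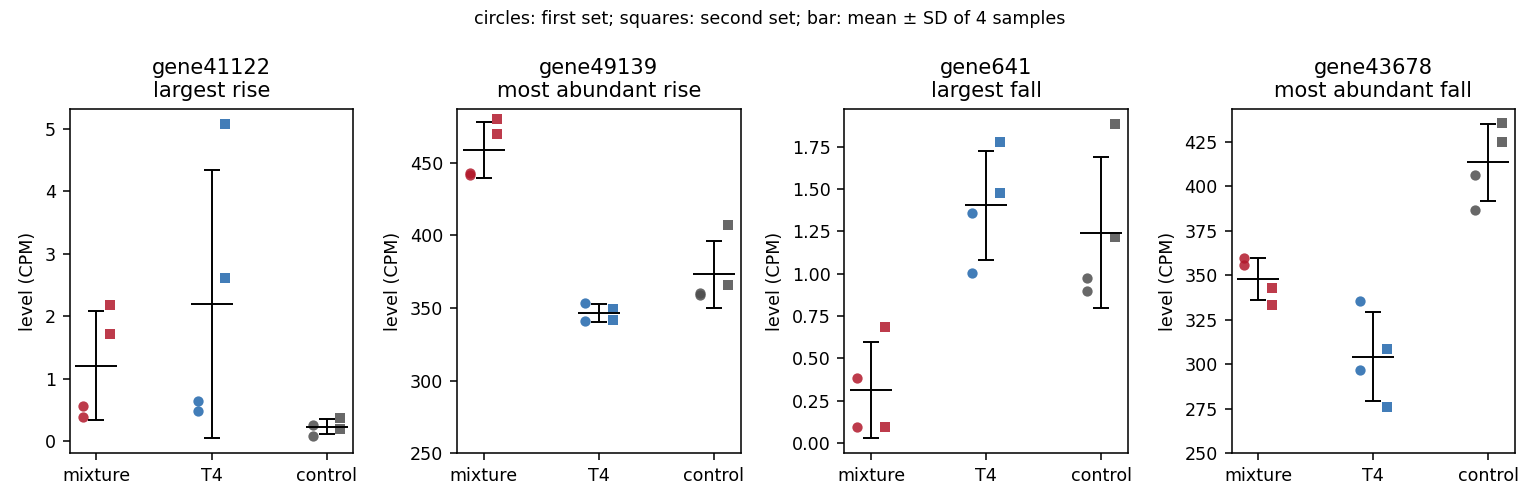
CPM of the 4 example genes in each sample of the mixture, T4 and control groups (circles, first set, and squares, second set, with the mean ± SD of 4 samples), where the axes of gene49139 and gene43678 do not start at 0. For each gene, the 4 mixture values lie on one side of the 4 control values.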

How the data were processed

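RNA from pools of 2 brains was sequenced in 12 samples, and each deposited table holds the counts of 1 sample on 51041 genes. The values the authors deposited are raw counts, without normalization. According to the study's methods, 1 copy of duplicated reads was kept, 11 bases were trimmed from the 5′ end and 1 from the 3′ end, reads of 64 bases were selected (cutadapt 1.15), aligned by Bowtie2 2.2.4 to *X. laevis* genome release 9.2 (multiply mapped reads discarded), and assigned to genes by HTSeq 0.9.1 in union mode. Counts of near-identical L and S gene copies and of overlapping genes are uncertain, because reads that match both are lost and the strand setting is not given in the sources used here. Between 39.8% and 40.7% of the reads of the mixture and control samples were in the 5 rows that name no gene and were left out.

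Genes were tested with edgeR 4.0.16 (R 4.3.3): TMM, filterByExpr with a minimum count of 10, glmQLFit and glmQLFTest, with group and set as terms. A count of 3 was at most 0.290 CPM in these samples. DESeq2 1.42.0 served as an alternative and for the PCA, and matplotlib 3.10.9 (Python 3.11.15) drew the figures. The tests were checked on simulated counts. Alternatives were other size factors, filters, thresholds, sample choices and treatments of the set. The fits within a set and the share of counts on abundant genes were additions made once the data were known. The sets, the examples and the comparisons were chosen with earlier results of these data known. Examples were, in each direction, the DEG with the largest log2 fold change at a mean log2 CPM above 0 and the DEG with the highest control mean, among DEGs without overlap of the groups and with 1 sign in both sets. Gene names and gene lists were not analysed here.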

Additional observations from a re-analysis of the deposited data

Results flagged for a closer look

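Of 26 groups of 4 values examined for a sample apart from the others (depth, shares of reads, summed levels and the 4 example genes, in the mixture and in the control group), 1 was flagged. The level of gene49139 in control sample 4 was 408 CPM, whereas the remaining control samples had 359 to 366 CPM, and the gap took up 0.861 of the range of the group, above Dixon's critical value for 4 samples. Chance flags about 1 in 20 groups. The direction of this sample is towards the mixture samples, and the log2 fold change of gene49139 stayed between 0.28 and 0.34 when 1 sample was left out.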

How the results depend on the processing

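The direction of the 4 example genes was kept under every alternative in which the gene had an adjusted p-value. These genes were chosen without overlap of the groups and with 1 sign in both sets, so this largely follows from the choice. The 625 DEGs became 1056 with DESeq2 (750 lower and 306 higher, 71.0% lower), 1692 with component 2 removed before DESeq2 (1104 and 588, 65.2% lower), and 1598 at an adjusted p-value under 0.1 (1150 and 448, 72.0% lower). They became 225 with the 8 mixture and control samples alone (198 and 27, 88.0% lower) and 141 without the set as a term (130 and 11, 92.2% lower). Scaling by total counts gave 818 lower and 61 higher genes (93.1% lower). The second set alone gave 261 higher genes and a lower share of 67.5%, and the first set alone gave 0 genes in either direction. The interaction of exposure and set gave 1 gene with the 8 samples alone. Leaving out 1 sample gave 67 to 582 DEGs, 57 to 479 lower and 10 to 146 higher, with 71.4% to 89.1% lower. The difference in the share of counts on genes above 100 CPM stayed between 1.13 and 1.49 points when 1 sample was left out. With labels permuted within the sets, the difference of 1.34 points no longer passed (exact permutation p = 0.0556). RLE or upper-quartile factors, other filters on low counts and the score on component 2 as a covariate moved the number of DEGs by less than 1.5 times (607 to 693). The cause of these changes was not tested. For gene43678 the call was lost with the 8 samples alone, and without the set as a term the calls of gene43678, gene41122 and gene641 were lost. No value was obtained for gene41122 and gene641 with the 8 samples alone or with at least 10 counts in every sample. DESeq2, with or without component 2 removed, gave gene41122 and gene641 no adjusted p-value, and their fold changes there were not taken. In the first set alone no example gene was called, and in the second set alone gene641 was not. Depth limits the description of genes under 3 CPM. Single samples were not paired, since the sample numbers run from 1 to 12 and are not shared between the groups, and the set was the block in the tests across genes.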
